A study of Arabidopsis thaliana with 6 samples.

Results

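The transcripts described here come from 41 loci of Arabidopsis thaliana that encode cell-surface proteoglycans, 21 fasciclin-like arabinogalactan proteins (FLA) and 20 other arabinogalactan proteins (AGP). They were taken by locus from a list of the 2 families and are 41 of the 33602 genes in the count files. RNA was sequenced from whole seedlings (root, hypocotyl and cotyledons) of the athb1-1 mutant and of wild-type Columbia (Col-0), with 3 libraries of each genotype that the labels call biological triplicates. For both genotypes the labels give an age of 4 days, 3 days of stratification and a time of 72 h after stratification. Both were grown on agar medium at 22 to 24 °C in cycles of 8 h of light and 16 h of darkness. The light was 120 µmol per square metre per second, and both genotypes were harvested 1 h before the dark period ended. No treatment separated them. The mutant is represented by a single allele, and whole seedlings mix the cell types of all organs, so that fewer cells of a type and less RNA per cell cannot be told apart.

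Arabinogalactan proteins are secreted proteins whose backbone is rich in proline, alanine, serine and threonine. Many prolines are hydroxylated, and glycosyltransferases of the Golgi then build large galactose- and arabinose-rich side chains on them. Classical AGPs and the short AG peptides are usually tied to the plasma membrane by a lipid (GPI) anchor, and fasciclin-like members add fasciclin domains, folds known for adhesion between proteins or cells. The families are known for roles in cell expansion, root growth, secondary walls and reproduction.

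ATHB1, the homeodomain-leucine zipper class I transcription factor gene that is mutated in athb1-1, was examined first as a check of the labels. Its exon bins averaged 8.57 ± 0.504 CPM (counts scaled to the size of each library) in athb1-1 and 405 ± 40.5 CPM in wild-type (SD, n = 3 each), a log2 fold change of −5.56 (SE 0.12, edgeR adjusted p = 7.356e-11 over 18764 loci). Gene counts totalled 12841376 to 13153615 per athb1-1 library and 11036314 to 11974342 per wild-type library. Wild-type replicate 2 stood apart. Its 12 seed storage and oleosin markers summed to 52.2 CPM, against 1.87 to 6.31 CPM in athb1-1 and 2.62 and 8.08 CPM in the other wild-type libraries, and the median log2 deviation of its longest 10% of transcripts from the mean library was −0.21. CRU2 and SESA5 of these markers were at 0 in the other 5 libraries. The markers of cotyledon photosynthesis (4 genes), root (4 genes), root hair (7 genes) and xylem (6 genes) were all detected in every library.

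The structural classes differed in their coding sequences, which were read from the TAIR10.1 assembly of RefSeq. In the 8 classical AGPs, codons for proline, alanine, serine and threonine made up 59.5 to 72.6% of all codons, against a median of 24.9% over 27444 nuclear protein-coding genes. The 9 AG peptides had 58 to 74 codons, of which 38.1 to 50.8% were of these kinds. The 2 lysine-rich AGPs reached 53.6 and 56.8%, and AGP31, a chimeric AGP with a cysteine-rich domain, 43.5%. In the 21 FLA genes, which also encode fasciclin domains, the share was 25.8 to 43.1% over 246 to 489 codons. An in-frame run of the codons GCNCCNGCNCCN (alanine, proline, alanine, proline) occurred in 35 of the 41 genes, against 1.03% of all nuclear protein-coding genes. All 9 AG peptides held such a run, and none of the 4 FLA genes of group D did.

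**Figure D1:**
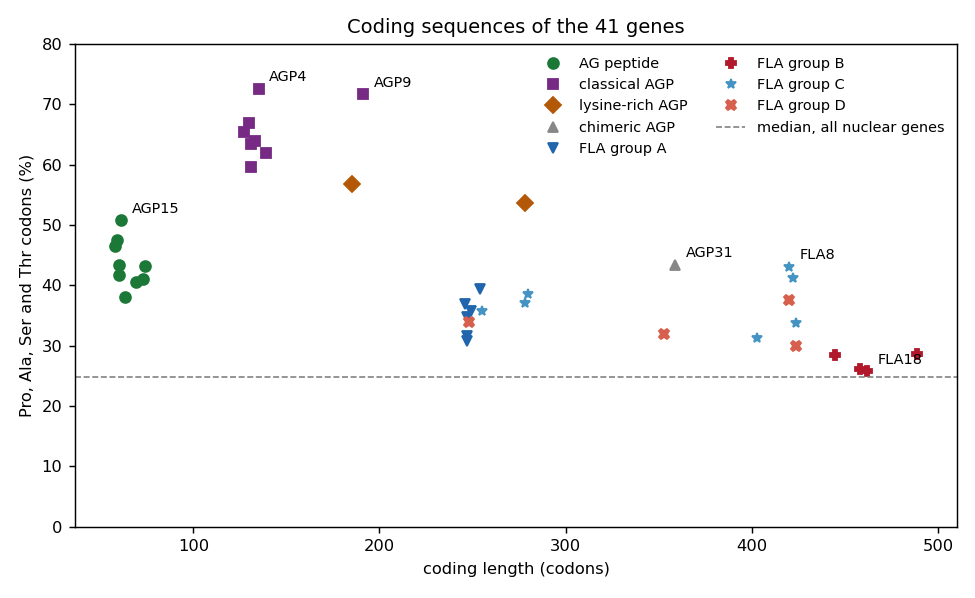
Coding length in codons (x axis) against the percentage of codons for proline, alanine, serine and threonine (y axis) for each of the 41 genes, with marker and colour by structural class and a dashed line at the median of all nuclear protein-coding genes (24.9%). The classical AGPs form the top group at 59.5 to 72.6%, the AG peptides lie at the left with 58 to 74 codons, and the FLA genes of group B lie closest to the line.

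The coding sequences of 4 AG peptides are shown because these genes recur in the comparison of the genotypes and are short enough to be read whole. Each runs 5′ to 3′ from start to stop codon, with the codons for proline, alanine, serine and threonine in capitals. AGP15 (AT5G11740) lies at chr5:3784318-3784503 on the plus strand of TAIR10.1, AGP12 (AT3G13520) at chr3:4409087-4409269 on the plus strand, AGP14 (AT5G56540) at chr5:22893243-22893425 on the plus strand and AGP21 (AT1G55330) at chr1:20648634-20648810 on the minus strand. All 4 are coding stretches within a single exon.
AGP15: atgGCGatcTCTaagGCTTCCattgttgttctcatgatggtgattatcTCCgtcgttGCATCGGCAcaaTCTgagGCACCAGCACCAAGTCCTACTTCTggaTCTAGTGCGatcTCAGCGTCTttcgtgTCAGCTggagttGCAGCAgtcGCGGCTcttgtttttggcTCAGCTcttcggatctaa
AGP12: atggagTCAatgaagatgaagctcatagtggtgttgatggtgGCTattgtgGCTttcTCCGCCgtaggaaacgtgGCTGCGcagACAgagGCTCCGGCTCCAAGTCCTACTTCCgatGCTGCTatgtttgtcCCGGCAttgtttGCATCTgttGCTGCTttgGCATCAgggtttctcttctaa
AGP14: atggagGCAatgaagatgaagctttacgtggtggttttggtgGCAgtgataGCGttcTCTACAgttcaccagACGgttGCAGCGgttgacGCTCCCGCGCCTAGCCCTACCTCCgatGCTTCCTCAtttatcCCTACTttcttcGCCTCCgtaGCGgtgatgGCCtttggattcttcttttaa
AGP21: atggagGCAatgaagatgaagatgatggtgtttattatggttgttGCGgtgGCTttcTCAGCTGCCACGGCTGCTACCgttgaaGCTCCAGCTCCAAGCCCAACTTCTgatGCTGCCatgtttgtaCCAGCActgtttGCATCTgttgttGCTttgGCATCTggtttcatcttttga
Each held 1 run of the alanine-proline codons, and 50.8% of the codons of AGP15 were of the capitalised kinds, against 43.3% in AGP12, 41.7% in AGP14 and 46.6% in AGP21.

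Levels were compared between genes as CPM per kb of transcript, averaged over the 6 libraries. The highest was FLA9, a short FLA of group A, with 289 CPM per kb, followed by the classical AGPs AGP9 (246 CPM per kb) and AGP4 (241 CPM per kb) and by the AG peptides AGP16 (206 CPM per kb), AGP21 (169 CPM per kb) and AGP12 (159.9 CPM per kb). In this order AGP9 and AGP4 differed by less than the spread between libraries, as did AGP21, AGP12 and AGP31 (158 CPM per kb). Of the 41 genes, 14 ranked in the top 10% of the tested genes, none in the top 1%, and 12 ranked in the bottom 50% or were not tested. FLA group A alone included FLA9 at the top and FLA6 at 1.93 CPM per kb. Together the 41 genes took 0.286%, 0.333% and 0.266% of the counts in the 3 athb1-1 libraries and 0.286%, 0.298% and 0.257% in the 3 wild-type libraries. These shares overlapped between the genotypes.

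**Figure D2:**
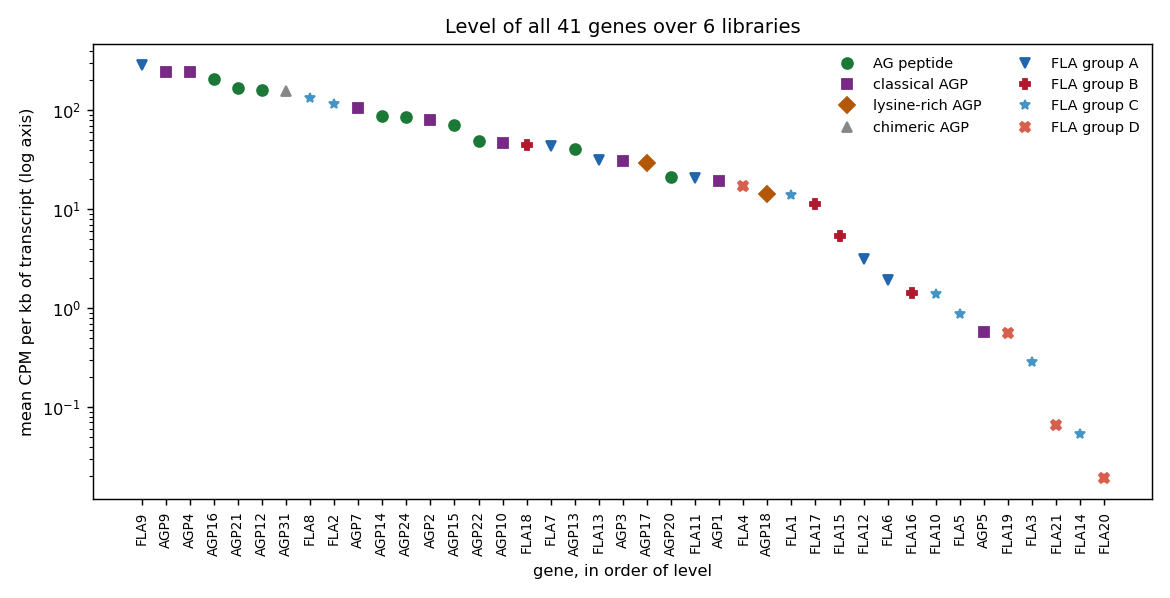
Mean CPM per kb of transcript over the 6 libraries (y axis, log scale) for each of the 41 genes in order of level (x axis), with marker and colour by structural class. Levels run down to 0.0192 CPM per kb for FLA20, starting at 289 CPM per kb for FLA9, and 3 of the 4 FLA genes of group D are among the last 5.

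The comparison of athb1-1 with wild-type asks whether these transcripts differ when ATHB1 is mutated. No gene of either family passed the test in the 6 libraries. The gene nearest to it was AGP15, with a mean 1.27-fold higher in athb1-1. Of the 41 genes, 35 had enough counts to be tested, and 0 of these 35 had an edgeR quasi-likelihood Benjamini-Hochberg adjusted p under 0.05, while 10 of all 18626 genes tested did, a background of 0.0537%. At an edgeR unadjusted p under 0.05 there were 2 (AGP15 and FLA5), both higher in athb1-1. Over all genes tested the share was 5.24% in either direction and 2.9% higher in athb1-1. The DESeq2 Wald test, run without the count filter, covered all 41 genes and called 0. It had 1 of the 41 at an unadjusted p under 0.05, against 524 of all 24710 genes in that fit. Without wild-type replicate 2, 9 of 36 tested genes had an edgeR unadjusted p under 0.05, all 9 higher in athb1-1, against 13.7% of all genes tested in either direction. The share of all genes in that direction alone was not computed for this fit. The fold change was above 0 for 25 genes and below 0 for 10, with a median log2 fold change of 0.09, beside 51.7% above 0 and a median of 0.0064 over all genes tested. Libraries of the genotypes did not overlap for 5 genes. AGP15, FLA1, FLA5 and FLA16 lay higher in athb1-1 (background 5.86%) and AGP20 lay lower (background 5.49%).

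The 95% interval of the fold change lay within 1 log2 unit of 0 for 33 of the 35 tested genes, all but FLA5 and FLA6, and within 0.5 log2 units for 22. The interval had a median half-width of 0.29 log2 units. The number of positive fold changes moved with single libraries. Without athb1-1 replicate 2, 16 of 36 tested genes had a positive fold change and the median was −0.03, and without athb1-1 replicate 3, 31 of 36 did, with a median of 0.14. Without wild-type replicate 3, 18 of 35 did, with a median of 0.0087.

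**Figure D3:**
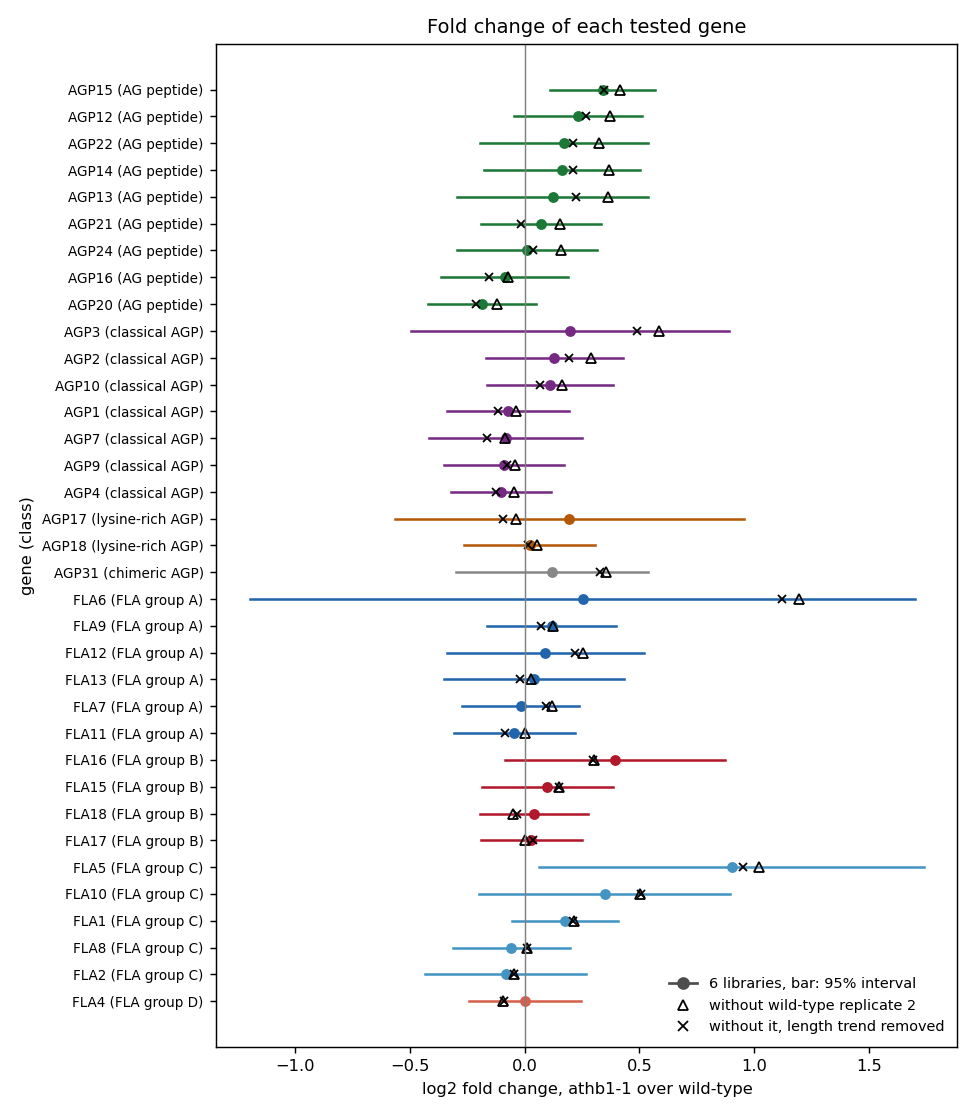
Log2 fold change of athb1-1 over wild-type (x axis) for each of the 35 tested genes (rows, grouped by structural class), as filled circles with the 95% interval from edgeR. Open triangles give the value without wild-type replicate 2 and crosses the value without it after the length trend was removed. Only the intervals of AGP15 and FLA5 lie clear of 0, and for AGP15 all 3 values lie between 0.34 and 0.42.

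Of the 9 AG peptides, which have the shortest coding sequences, all were tested, and 7 had a fold change above 0 and 2 below, with a median log2 fold change of 0.12. The median moved with single libraries, being −0.03 with athb1-1 replicate 2 left out, where 4 of the 9 were above 0. It was 0.33 with wild-type replicate 2 left out and 0.013 with wild-type replicate 3 left out. AGP15 measured 80.9, 90.2 and 75.2 CPM in the athb1-1 libraries, against 59.5, 72.2 and 63.0 CPM in the wild-type libraries. Every athb1-1 library lay above every wild-type library, the closest pair being athb1-1 replicate 3 and wild-type replicate 2. The means were 82.1 ± 7.604 CPM in athb1-1 and 64.9 ± 6.60 CPM in wild-type (SD, n = 3 each), and the log2 fold change of 0.34 (SE 0.11, 95% interval 0.11 to 0.57) had an unadjusted p of 0.00740 and an edgeR adjusted p of 0.789. Without wild-type replicate 2 the log2 fold change was 0.42 and the edgeR adjusted p was 0.0195, and AGP15 was then the only gene of either family called, beside 165 of 18892 genes, a background of 0.873% in either direction and 0.376% higher in athb1-1. With the length trend also removed it was 0.35 with an edgeR adjusted p of 0.0431, beside 106 of 18892 genes (0.561%). Over all alternatives the adjusted p of AGP15 ranged between 0.0195 and 0.99974.

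AGP12 measured 136, 159 and 125 CPM in the athb1-1 libraries, against 107, 142 and 108 CPM in the wild-type libraries. Wild-type replicate 2 lay among the athb1-1 values and the other wild-type libraries below all of them. The log2 fold change was 0.23 (SE 0.13, edgeR adjusted p = 0.947), and without wild-type replicate 2 it was 0.37 with an edgeR adjusted p of 0.0553. AGP14, which has been implicated in root hair elongation, also had wild-type replicate 2 above the other wild-type libraries, with 46.7, 51.8 and 40.3 CPM in athb1-1 against 36.1, 52.6 and 35.4 CPM in wild-type. Its log2 fold change was 0.16 (SE 0.15, edgeR adjusted p = 0.971), and 0.37 without wild-type replicate 2 (edgeR adjusted p = 0.0853). Among the other AG peptides, the smallest edgeR adjusted p without that library was 0.191, in AGP13.

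AGP16, the most abundant AG peptide, had 176, 228 and 161 CPM in athb1-1 and 212, 206 and 182 CPM in wild-type. The groups overlapped, and the log2 fold change was −0.09 (SE 0.13). AGP21 had 71.7, 86.0 and 64.4 CPM in athb1-1 and 67.4, 79.3 and 65.1 CPM in wild-type, with overlapping groups and a log2 fold change of 0.07 (SE 0.12). AGP20 was the 1 gene whose libraries separated in the other direction. It measured 16.6, 16.6 and 17.6 CPM in athb1-1, against 18.9, 21.2 and 17.8 CPM in wild-type. The nearest libraries, athb1-1 replicate 3 and wild-type replicate 3, were almost level, and the log2 fold change of −0.19 (SE 0.11) had an edgeR adjusted p of 0.947. The remaining AG peptides AGP13, AGP22 and AGP24 had log2 fold changes of 0.12, 0.17 and 0.01, and of 0.36, 0.33 and 0.16 without wild-type replicate 2.

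Most AG peptides were highest in the same library of their genotype. In athb1-1 this was replicate 2 for all but AGP20, and in wild-type it was replicate 2 for all but AGP16. Their median log2 deviation from the mean of the 6 libraries was 0.09, 0.26 and −0.11 in athb1-1 replicates 1 to 3, against −0.20, 0.21 and −0.21 in wild-type replicates 1 to 3. AG peptide transcripts ranged from 427 bp (AGP21) to 1034 bp (AGP15), and some classical AGP transcripts were shorter than that of AGP15 (AGP10, 830 bp). The shortest 10% of all transcripts deviated with the same sign in every library, with medians of 0.04, 0.07 and −0.03 in athb1-1 and −0.09, 0.11 and −0.08 in wild-type. This pattern was not particular to the AG peptides. The medians of FLA group A had the same signs, at 0.08, 0.16 and −0.12 in athb1-1 and −0.0071, 0.19 and −0.22 in wild-type. Every class had a median above 0 in athb1-1 replicate 2. In wild-type replicate 2 only FLA groups B and D and the lysine-rich AGPs were below 0, at −0.125, −0.19 and −0.29. The summed root hair markers were also highest in the libraries where the AG peptides were high, at 126, 115 and 82.5 CPM in athb1-1 and 74.1, 116 and 76.1 CPM in wild-type. The 4 root markers were highest in the same libraries, at 2079, 2121 and 1851 CPM in athb1-1 and 2039, 2244 and 1971 CPM in wild-type. The cotyledon photosynthesis markers were highest in replicate 2 of each genotype but lowest of all libraries in athb1-1 replicate 1 (30126 CPM). The part of root, root hair or cotyledon RNA in the AG peptide values was not tested. With the length trend removed, 5 of the 9 AG peptides had a positive fold change and their median was 0.06. When wild-type replicate 2 was left out as well, 6 of the 9 did and the median was 0.21.

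**Figure D4:**
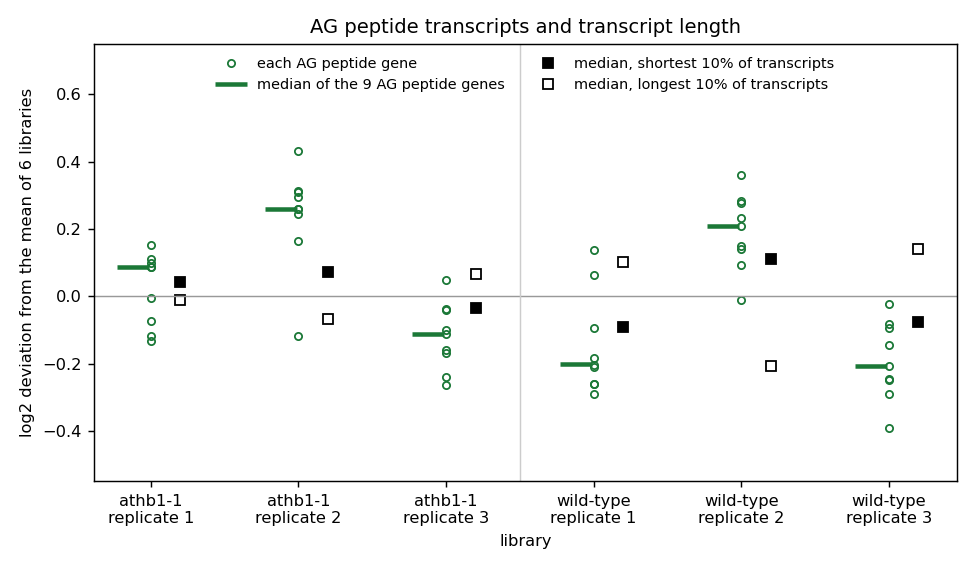
Log2 deviation from the mean of the 6 libraries (y axis) in each library (x axis, athb1-1 left of wild-type), as circles for the 9 AG peptide genes, bars for their median and squares for the median of the shortest (filled) and longest (open) 10% of transcripts. The AG peptide median is above 0 in athb1-1 replicates 1 and 2 and in wild-type replicate 2, the same 3 libraries in which the shortest transcripts are above 0.

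The classical AGPs showed no common direction. Of 8 genes 7 were tested, 3 with a fold change above 0 and 4 below, with a median log2 fold change of −0.07. AGP9 measured 289.7, 373 and 311 CPM in athb1-1 and 366, 373 and 298 CPM in wild-type. AGP4, known for a role in the synergid cells of the ovule, measured 217, 241 and 221 CPM in athb1-1 and 249, 263 and 216 CPM in wild-type. Both sets of libraries overlapped, with log2 fold changes of −0.09 (SE 0.12) for AGP9 and −0.10 (SE 0.10) for AGP4. AGP3 was the most variable classical AGP, with 30.4, 34.3 and 21.0 CPM in athb1-1 and 18.3, 36.9 and 19.6 CPM in wild-type. Its log2 fold change of 0.20 (SE 0.30) became 0.58 without wild-type replicate 2, whose value was the highest of the 6, with an edgeR adjusted p of 0.294. AGP3 was described after its values were seen. The other classical genes tested, AGP1, AGP2, AGP7 and AGP10, lay between −0.08 and 0.13.

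Lysine-rich and chimeric AGPs also varied more within the genotypes than between them. AGP17, a lysine-rich AGP needed for efficient Agrobacterium transformation of roots, measured 27.1, 46.8 and 32.9 CPM in athb1-1 and 46.6, 20.4 and 26.4 CPM in wild-type. A high library occurred in each genotype, and the log2 fold change of 0.19 had an SE of 0.32. AGP18, the other lysine-rich gene, had a log2 fold change of 0.02. AGP31, which binds pectin in the wall, measured 213, 274 and 242 CPM in athb1-1, against 210.3, 293 and 169 CPM in wild-type. Wild-type replicate 2 was the highest of the 6 libraries, and the other wild-type libraries lay below every athb1-1 library. The log2 fold change was 0.12 (SE 0.19, edgeR adjusted p = 0.974), and 0.35 without wild-type replicate 2 (edgeR adjusted p = 0.191).

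Among the FLA genes, 16 of 21 were tested, 12 with a fold change above 0 and 4 below, with a median log2 fold change of 0.06. Group C, with 5 tested genes, held the largest fold change of either family. FLA5 was counted 12, 20 and 14 times in the athb1-1 libraries and 8, 8 and 5 times in the wild-type libraries, or 0.871, 1.56 and 1.08 CPM against 0.743, 0.728 and 0.409 CPM. All athb1-1 values were above all wild-type values, with the lowest athb1-1 library close to the highest wild-type one. The log2 fold change was 0.90 (SE 0.39, 95% interval 0.06 to 1.74), with an unadjusted p of 0.0371 and an edgeR adjusted p of 0.939. FLA1, known for a role in early shoot and lateral root development, had 24.9, 26.4 and 26.5 CPM in athb1-1 and 24.3, 24.4 and 20.2 CPM in wild-type. Its groups were separate by a small margin, and the log2 fold change was 0.18 (SE 0.11, edgeR adjusted p = 0.947).

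FLA10 measured 2.32, 2.89 and 3.94 CPM in athb1-1, against 2.23, 2.91 and 2.05 CPM in wild-type. The groups overlapped, with a log2 fold change of 0.35 (SE 0.25, edgeR adjusted p = 0.957). Its coding sequence shares an identical run of 53 bases with that of FLA8, the longest between any 2 of the 41 genes (820 pairs). A read short enough to lie within that run could fall in either gene, and the read length was not examined. FLA8 (log2 fold change −0.06) was measured at 216 to 277 CPM in athb1-1 and 219 to 276 CPM in wild-type. FLA2, the remaining gene of the group, had a log2 fold change of −0.08.

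In group A, the short FLAs, 6 of 6 were tested, 4 above 0 and 2 below. FLA9 measured 318, 408 and 324 CPM in athb1-1 and 366, 329 and 273 CPM in wild-type. The libraries overlapped, and the log2 fold change was 0.12 (SE 0.13, edgeR adjusted p = 0.971). FLA11 and FLA12, known from secondary walls of stems, had log2 fold changes of −0.04 (SE 0.12) and 0.09 (SE 0.20), while the 6 xylem and secondary wall markers summed to 172 to 189 CPM in athb1-1 and 173 to 182 CPM in wild-type. FLA6 had the widest interval of all tested genes, −1.20 to 1.70, with 0.928 to 3.48 CPM in athb1-1 and 0.901 to 3.55 CPM in wild-type. Its log2 fold change of 0.25 became 1.195 without wild-type replicate 2 (edgeR adjusted p = 0.358), and leaving out each library in turn gave −0.34 to 1.195. FLA7 and FLA13 had log2 fold changes of −0.02 and 0.04.

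All 4 genes of group B were tested and had fold changes above 0. FLA16, needed for normal stem growth, measured 3.05, 2.89 and 2.63 CPM in athb1-1, against 1.95, 1.91 and 2.62 CPM in wild-type. Only athb1-1 replicate 3 and wild-type replicate 3 lay close together. The log2 fold change was 0.39 (SE 0.22, edgeR adjusted p = 0.947). The other 3, FLA15, FLA17 and FLA18, lay between 0.03 and 0.10. FLA4, also called SOS5, required for root growth under salt and the 1 tested gene of group D, measured 31.7, 36.2 and 30.3 CPM in athb1-1 and 35.0, 28.5 and 34.6 CPM in wild-type. The groups overlapped, with athb1-1 replicate 2 the highest library and wild-type replicate 2 the lowest, and with a log2 fold change of 0.0020 (SE 0.11, 95% interval −0.24 to 0.25).

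**Figure D5:**
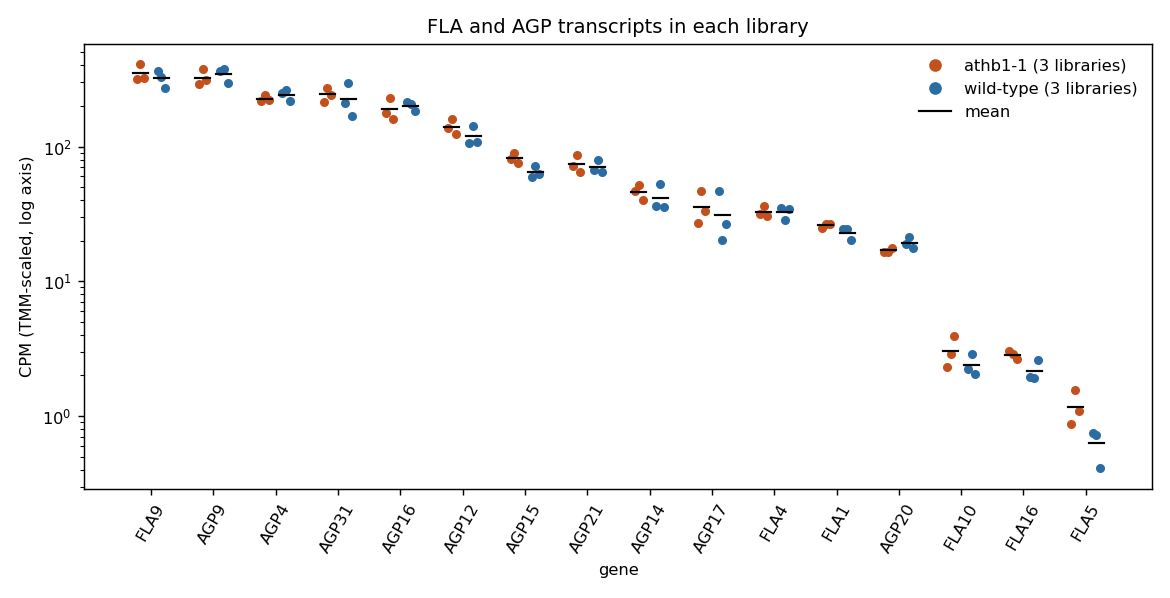
CPM in each library (y axis, log scale) for the 16 genes described library by library under the naming rule (x axis, in order of mean level), athb1-1 left of wild-type, with a bar at each mean of 3 libraries. AGP15, FLA1, FLA16 and FLA5 have all athb1-1 points above the wild-type points, AGP20 has them below, and the other genes overlap.

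A total of 6 genes had too few counts to be tested. FLA3 and FLA14, known from pollen, were counted 25 and 3 times over all 6 libraries, and the 4 pollen markers summed to 3.56 to 5.03 CPM in athb1-1 and 5.67 to 7.45 CPM in wild-type. Most of that sum came from 1 marker, sks13, with 2.83 to 4.02 CPM in athb1-1 and 4.74 to 5.98 CPM in wild-type. FLA3 and FLA14 overlap a gene on the opposite strand over most or all of their length, and a loss of reads there was not tested. FLA19, FLA20 and FLA21 of group D were counted 52, 2 and 5 times, and AGP5 32 times. FLA20 was at 0 in all 3 wild-type libraries and at 1, 0 and 1 counts in athb1-1, too few for a ratio.

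The authors' deposited table lists 40 of the 41 genes, with FLA20 not in it, and gives its fold change as wild-type over athb1-1. There AGP15 has a log2 fold change of −0.34 with an adjusted p of 0.617, which is the smallest among these genes in the authors' deposited table. Of the 40 listed there, 0 had an adjusted p under 0.05.

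Exon usage, the share of a gene's reads that falls in each exon bin, could be tested for 11 of the 13 genes with 2 or more bins. None passed (edgeR diffSpliceDGE with the Simes method), against 1 of 12808 loci, a background of 0.00781%. At an unadjusted p under 0.05 there were 2, FLA18 and AGP9, against 0.617% of loci. The third bin of FLA18 took 10.9, 11.6 and 10.05% of the gene's bin counts in athb1-1, against 6.63, 8.54 and 7.88% in wild-type. The third bin of AGP9 took 16.0, 15.1 and 15.5% in athb1-1, against 11.4, 13.4 and 14.4% in wild-type. In both genes the athb1-1 shares lay above the wild-type shares, with unadjusted p of 0.0108 for FLA18 and 0.0310 for AGP9 and an adjusted p of 0.99999 for each. Such a separation was not particular to these bins. Bin 4 of AGP17 and bin 1 of AGP31 separated in the same direction, with Simes unadjusted p of 0.884 and 0.832 for those genes. The share of all bins that separate was not computed.

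The enzymes that hydroxylate the proline residues and build the glycan were examined as a list of 23 genes. Of these 22 were tested, 12 with a fold change above 0 and 10 below, with a median log2 fold change of 0.04, and 0 were called against the background of 0.0537%. At an edgeR unadjusted p under 0.05 there were 2 of the 22, against 5.24% of all genes tested. Libraries of the genotypes did not overlap for 2 genes higher in athb1-1 (background 5.86%) and 1 lower (background 5.49%). FUT4, a fucosyltransferase that adds fucose to the side chains, measured 10.2, 9.29 and 8.59 CPM in athb1-1, against 7.25, 8.19 and 5.24 CPM in wild-type. Its groups did not overlap, and the log2 fold change was 0.45 (SE 0.17, unadjusted p = 0.0206, edgeR adjusted p = 0.939). B3GALT10 (AT4G32120), a galactosyltransferase by its deposited name, measured 10.9, 11.7 and 10.5 CPM in athb1-1 and 8.36, 7.64 and 9.91 CPM in wild-type. It too had separate groups, with a log2 fold change of 0.35 (SE 0.14, unadjusted p = 0.0250, edgeR adjusted p = 0.939). AT1G67330 measured 2.32, 2.19 and 1.70 CPM in athb1-1, against 1.39, 1.73 and 0.983 CPM in wild-type, with overlap at a single library and a log2 fold change of 0.61 (SE 0.28, edgeR adjusted p = 0.939). One gene of the list, AT1G70630, had all athb1-1 libraries below the wild-type libraries (log2 fold change −0.62, SE 0.29, edgeR adjusted p = 0.939). It was named after its values were seen.

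The sequence upstream of the genes was searched for the pseudopalindrome CAATAATTG, a site bound in vitro by HD-Zip class I proteins such as ATHB1, and for CAATCATTG of class II, on both strands of the 1000 bases before each gene start in TAIR10.1. The class I motif occurred before 1 of the 41 genes, AGP13, and before 2.25% of 27443 genes. The class II motif occurred before none of the 41, against 1.21% of genes. The AGP13 match lay 356 bases upstream of the gene, within chr4:13317932-13318051, and is shown on the minus strand, which the gene uses, with the motif in capitals.
AGP13 upstream: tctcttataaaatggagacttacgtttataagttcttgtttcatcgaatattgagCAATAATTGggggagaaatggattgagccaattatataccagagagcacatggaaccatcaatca
AGP13 measured 24.9, 28.7 and 20.8 CPM in athb1-1 and 20.6, 30.0 and 17.9 CPM in wild-type, with overlapping groups and a log2 fold change of 0.12 (SE 0.19, edgeR adjusted p = 0.974).

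Some values could include reads of another gene, or lack reads that fit more than 1 gene. Whether the authors counted by strand is not stated in the labels, and 8 of the 41 genes overlap a gene on the opposite strand in TAIR10.1. In FLA16 the overlap with the long non-coding RNA AT2G35859 covers 1338 bases, while that RNA was counted 15 times against 187 for FLA16 over the 6 libraries. FLA14 overlaps AT3G12670, which was counted 1503 times, over 768 bases, its whole length. FLA3 overlaps AT2G24440, which was counted 84 times, over 1148 of its 1190 bases. Whether reads that fit both genes were dropped from FLA3 and FLA14 was not tested. The 228 bases that AGP16 shares with AT2G46320 belong to a gene counted 380 times, against 14197 for AGP16. AGP15 and FLA5 overlap no other gene. Of the 82 nearest protein-coding neighbours of the 41 genes that do not overlap them, 1 was itself called between the genotypes. The background over all genes tested was 0.0537%, and how many of the 82 were tested was not counted. AT5G40720, 1034 bases from AGP24, averaged 5.60 ± 1.68 CPM in athb1-1 and 13.6 ± 1.43 CPM in wild-type (SD, n = 3 each), a log2 fold change of −1.28 (SE 0.19, edgeR adjusted p = 0.0304). AGP24 itself measured 61.6, 64.5 and 48.7 CPM in athb1-1 and 49.99, 69.8 and 53.9 CPM in wild-type, with overlapping groups.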

How the data were processed

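Per the submitters' processing notes, the authors aligned reads to TAIR10 with TopHat2 2.0.8 and Bowtie2 2.1.0. For each library the authors deposited unnormalized read counts, in 1 file by gene and in 1 file by exon bin. The sources used here name no counting program. The authors' deposited table gives log2 fold changes, mean log2 CPM, p-values and adjusted p-values. Its 6 per-library columns were not used.

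The 41 genes and all lists were chosen with earlier results of these data known. FLA groups and AGP classes are background knowledge. Positions, transcript lengths and coding sequences came from TAIR10.1 (RefSeq), which held 32835 of 33602 identifiers.

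All genes were tested with edgeR 4.0.16 in R 4.3.3 (TMM, filterByExpr, robust quasi-likelihood F-test, genotype as the only term) and called at a Benjamini-Hochberg adjusted p under 0.05. CPM was scaled with the TMM factors. The SE was taken from the log2 fold change and its F statistic. Exon bins were tested with diffSpliceDGE. ATHB1 had 0 gene counts in every library, so its exon bins were summed. The fits were run on simulated counts with planted changes of 1 or 2 log2 units. There edgeR recovered 86 of 99 genes changed by 1 log2 unit and 94 of 96 changed by 2, with 13 false calls among 193. Smaller changes in gene counts, such as most of those given here, were not simulated. Libraries of 1 genotype differed, with chi-square over its degrees of freedom at 4.28 to 12.6, by more than sampling noise.

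Values in every library were given for the 8 genes with the smallest p, the 6 with the highest CPM per kb, every gene called under any alternative, 1 gene of each class not yet named (highest CPM), and the 3 glycan genes with the smallest p. Alternatives were another normalization (RLE), the DESeq2 1.42.0 Wald test, no filter, a replicate block, removal of the transcript-length trend (lowess), exon bins summed per locus and leaving out each library. AGP3, AGP13 and AGP24 were described outside this rule.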

Additional observations from a re-analysis of the deposited data

How the results depend on the processing

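No gene of either family was called with 6 libraries under any alternative. Leaving out 1 library gave 0 to 1 (AGP15, without wild-type replicate 2), and the removal of the length trend with that library left out also gave 1. Over all genes, 10 were called in 6 libraries, 22 with DESeq2, 19 without the filter, 25 with the replicate block and the length trend removed, 106 with the length trend removed and wild-type replicate 2 left out, and 8 to 165 when each library was left out. Same-numbered libraries of the genotypes correlated at −0.05, 0.21 and 0.11, and only those of replicate 2 matched each other best. With 3 libraries per genotype, these values cannot tell whether the numbers pair the samples. The replicate block alone called 0 genes of the families and 12 of all genes. The calls for the glycan enzymes, exon usage and ATHB1 were the same under every alternative run for them. The sign of the log2 fold change turned under at least 1 alternative in 21 of the 35 tested genes, none of them called, and the cause was not tested. Among the genes given by library, leaving out each library in turn gave −0.011 to 0.22 for FLA9, −0.25 to 0.015 for AGP16, −0.056 to 0.16 for AGP21, −0.051 to 0.35 for AGP31, −0.095 to 0.054 for FLA4 and −0.056 to 0.60 for AGP17. AGP21 was −0.031 with the length trend removed, −0.034 with the replicate block as well and −0.015 when the trend was removed and wild-type replicate 2 left out, where AGP17 was −0.094 and FLA4 −0.092. FLA4 was −0.0036 with RLE, −0.0043 with DESeq2, −0.0036 with the length trend removed, −0.0031 with the block as well and −0.0022 with exon bins. The widest intervals were those of FLA6 (−1.20 to 1.70), FLA5 (0.06 to 1.74) and AGP17 (−0.57 to 0.96). The means of AGP17 were 35.6 CPM in athb1-1 and 31.1 CPM in wild-type, so wide intervals were not confined to low counts.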
